A study of Homo sapiens with 8 samples.

Results

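The keratin genes were taken as all probe sets whose only gene symbol in the platform annotation is KRT followed by a number and at most 1 letter, which leaves out keratin-associated proteins and pseudogenes. This gave 36 probe sets of 32 genes, out of 22277 probe sets on the array and 11963 genes that it names singly. The arrays held RNA of 4 human cell lines derived from ovarian cancers and grown in serum-containing medium: SKOV-3 and DOV-13, and with them CAOV-3 and OVCAR-3. Every line has 1 array with RNA from cells given pI:pC (polyriboinosinic:polyribocytidylic acid, a synthetic double-stranded RNA) and 1 with RNA from untreated cells. pI:pC was used at several concentrations, and the labels give no dose and no time for the single arrays. The values are deposited log2 expression levels made by RMA, in which a difference of 1 is a doubling of signal. It is not stated how many cultures stand behind an array, so p-values measure only the spread between these arrays.

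Keratins are the intermediate filament proteins of epithelial cells. A filament is built from pairs of an acidic type I and a basic type II keratin, and most type I genes lie in a cluster on chromosome 17, most type II genes in a cluster on chromosome 12. KRT18, a type I gene, is the exception and lies beside its type II partner KRT8 on chromosome 12. Simple epithelia use KRT8 and KRT18 with KRT7 and KRT19, and stratified epithelia use KRT5 with KRT14 in the basal layer and other pairs above it. KRT7, KRT8, KRT18 and KRT19 are used in pathology as marks of an epithelial origin, and KRT7 stains most ovarian carcinomas.

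The 8 arrays had median levels between 6.19 and 6.30 over the 22215 probe sets left without array controls. With 8 arrays, precision is limited by their number. Arrays of 1 line correlated at 0.992 to 0.997 over all probe sets, and arrays of different lines at 0.897 to 0.947. Epithelial markers (EPCAM, CDH1, CLDN3, CLDN4, MUC1) were at or above the array median on both arrays, as 48.6% to 48.9% of all probe sets were, for 2 of 9 probe sets in SKOV-3, 0 of 9 in DOV-13, 8 of 9 in CAOV-3 and 7 of 9 in OVCAR-3. E-cadherin (CDH1, 201131_s_at) was at 3.89 and 3.74 in SKOV-3 and at 3.96 and 3.58 in DOV-13 (pI:pC and untreated), low against its own levels of 9.49 and 9.70 in CAOV-3 and 9.52 and 9.41 in OVCAR-3. EPCAM (201839_s_at), by contrast, was above the median in SKOV-3 at 8.44 and 8.50, with 5.94 and 5.42 in DOV-13, 12.55 and 12.58 in CAOV-3, and 12.11 and 11.90 in OVCAR-3. MUC1 (213693_s_at) was between 5.77 and 6.51 in SKOV-3 and DOV-13, at 12.20 and 11.99 in CAOV-3, and at 8.32 and 7.89 in OVCAR-3. Genes induced by double-stranded RNA (ISG15, IFIT1, MX1, IFI44L, IFIT3, OAS1, CXCL10, CXCL8) had a median pI:pC minus untreated difference of 0.14 in SKOV-3, 0.18 in DOV-13, 2.82 in CAOV-3 and 2.15 in OVCAR-3. Of 18 probe sets of mesenchymal markers (VIM, CDH2, FN1, COL1A1, COL3A1, PDGFRB) 9 reached the median on both arrays in SKOV-3, 8 in DOV-13, 7 in CAOV-3 and 6 in OVCAR-3, and of 5 of leukocyte markers 0 in every line, so that the mesenchymal counts in SKOV-3 and DOV-13 were near the share of all probe sets.

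The file holds no detection calls, so a probe set was counted as expressed in a line where it was at or above the array median on both arrays of that line. The median is a working limit, since probe sets differ in how well they bind. The rule kept no probe set of KRT6A, KRT6B, KRT6C, KRT17, KRT81 or KRT86, so these keratins were not assessed. Of the keratins kept, every line expressed the same 5 genes by this count. These were the simple epithelial KRT7, KRT8, KRT18 and KRT19 and the suprabasal KRT10, and OVCAR-3 expressed KRT4 and KRT23 besides. In probe sets that was 7 of 36 in SKOV-3, against 48.6% of all probe sets, 7 of 36 in DOV-13, against 48.9%, 7 of 36 in CAOV-3, against 48.6%, and 9 of 36 in OVCAR-3, against 48.8%. Over all lines, 7 of 36 were at or above the median on all 8 arrays, against 40.2% of all probe sets, and 10 on at least 1 array, against 59.9%. The counts per line were 7, 7, 7 and 9 as well with a limit taken from 17 genes not expected in these cells (insulin, rhodopsin and others), the 95th percentile of whose 28 probe sets lay between 6.53 and 6.90. Of those 28, 3 also reached the median on both OVCAR-3 arrays. The highest stood at 7.62 with pI:pC and 7.18 untreated, beside 7.05 and 7.62 for KRT4, which counted through only 1 of its probe sets. The call of KRT4 is thus less secure than that of KRT23 (8.92 and 8.67).

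The closest probe set above the array median was KRT9 (208188_at), a keratin of palm and sole skin, which passed on 1 of 8 arrays. It had 6.19 with pI:pC and 6.07 untreated in SKOV-3, 6.15 and 5.88 in DOV-13, 6.09 and 5.95 in CAOV-3, and 6.12 and 6.42 in OVCAR-3. The closest below the median was KRT5 (201820_at), which ran between 5.79 and 6.23. The 26 probe sets that were below the median on all 8 arrays had levels between 3.76 and 6.23.

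**Figure D1:**
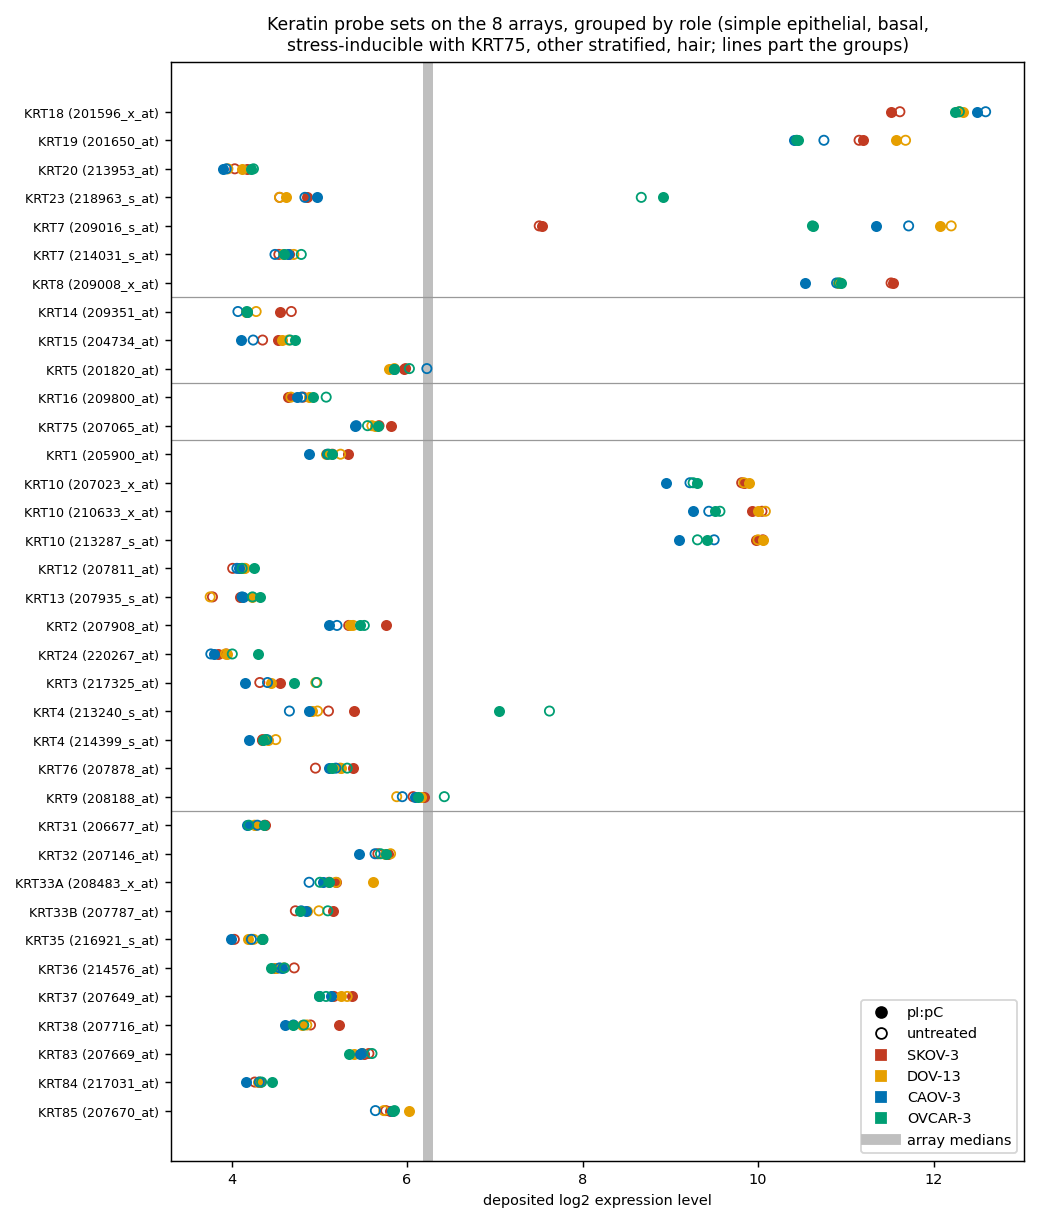
Deposited log2 level (x axis) of all 36 keratin probe sets (rows, grouped by role) on the 8 arrays, coloured by cell line, with pI:pC arrays as filled and untreated arrays as open points. The grey band spans the array medians, 6.19 to 6.30, and 7 probe sets of 5 genes lie to its right on all 8 arrays.

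The highest and the lowest line mean lay 4.62 apart on the log2 scale for the main KRT7 probe set, 4.21 for KRT23, 2.57 for the brighter KRT4 probe set and at most 1.18, that of KRT19, for all other keratin probe sets. By limma's moderated F-test across the 4 lines, with treatment as a term and Benjamini-Hochberg adjustment over all probe sets, 13 of 36 keratin probe sets differed among the lines at an adjusted p under 0.05, against 65.5% of all probe sets. The share of keratin probe sets, 36.1%, lay below that of the array. The spread in this test comes from the 2 arrays of each line, 1 treated and 1 untreated, and not from separate cultures of 1 condition. Line means that were at least 1 apart and passed the F-test were found for 4 of 36 keratin probe sets, KRT7, KRT23, KRT4 and KRT19, against 32.9% of all. The median distance between the highest and the lowest line was 0.33 over the keratin probe sets and 0.64 over all probe sets.

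The 6 contrasts between lines placed the keratins that differed. SKOV-3 minus DOV-13 passed for 5 of 36 keratin probe sets (KRT7, KRT8, KRT14, KRT18 and KRT19), against 34.8% of all. SKOV-3 minus CAOV-3 passed for 11, against 46.8%, and SKOV-3 minus OVCAR-3 for 10, against 47.1%. DOV-13 minus CAOV-3 passed for 8, against 46.4%, DOV-13 minus OVCAR-3 for 8, against 46%, and CAOV-3 minus OVCAR-3 for 8, against 47.4%. With a difference of at least 1 required as well, KRT7 alone was left for SKOV-3 minus DOV-13, against 8.89% of all probe sets, and for SKOV-3 minus CAOV-3, against 16.1%. For SKOV-3 minus OVCAR-3 these were KRT4, KRT7 and KRT23, against 14.9%, and for DOV-13 minus OVCAR-3 KRT4, KRT7, KRT19 and KRT23, against 15.1%. For DOV-13 minus CAOV-3 it was KRT19, against 15.5%, and for CAOV-3 minus OVCAR-3 KRT4 and KRT23, against 15.3%.

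KRT7, the type II keratin of simple ducts and glands, separated SKOV-3 from the other lines. Its main probe set (209016_s_at) had 7.54 with pI:pC and 7.51 untreated in SKOV-3, 12.08 and 12.20 in DOV-13, 11.34 and 11.72 in CAOV-3, and 10.62 and 10.62 in OVCAR-3. Both SKOV-3 arrays lay far below all others, and the 4 lines did not overlap. The lines ran DOV-13, CAOV-3, OVCAR-3, SKOV-3 from high to low, and each neighbour in that order differed in limma's test (DOV-13 minus CAOV-3 0.61, 95% interval 0.34 to 0.88, adjusted p = 0.00302). CAOV-3 minus OVCAR-3 was 0.91 (0.64 to 1.18, adjusted p = 0.000362), and SKOV-3 minus OVCAR-3 was -3.10 (-3.37 to -2.83, adjusted p = 6.17e-07). SKOV-3 minus DOV-13 was -4.62, a 24.6-fold lower signal in SKOV-3. A second KRT7 probe set (214031_s_at) stayed between 4.49 and 4.79 on all 8 arrays and did not differ detectably among the lines (adjusted p = 0.707 by limma's F-test). The genes not expected in these cells had medians of 4.66 to 5.01 per array. The second probe set was thus near background even where the main one read 12.20. It neither repeats nor contradicts the line difference, which rests on the main probe set alone.

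KRT23, a type I keratin of simple epithelia, was high in OVCAR-3. It had 4.86 with pI:pC and 4.55 untreated in SKOV-3, 4.62 and 4.55 in DOV-13, 4.97 and 4.84 in CAOV-3, and 8.92 and 8.67 in OVCAR-3. SKOV-3, DOV-13 and CAOV-3 lay together below the array medians, and both OVCAR-3 arrays were far above them. CAOV-3 minus OVCAR-3 was -3.89 (95% interval -4.11 to -3.67, adjusted p = 9.39e-08 in limma's test). Below the median, DOV-13 minus CAOV-3 was -0.32 (adjusted p = 0.0259), and neither SKOV-3 minus DOV-13 (adjusted p = 0.414) nor SKOV-3 minus CAOV-3 (adjusted p = 0.128) passed.

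KRT4, a type II keratin of the upper layers of moist stratified epithelia such as the oesophagus, was also highest in OVCAR-3. Its probe set 213240_s_at had 5.40 with pI:pC and 5.10 untreated in SKOV-3, 4.91 and 4.98 in DOV-13, 4.88 and 4.66 in CAOV-3, and 7.05 and 7.62 in OVCAR-3. CAOV-3 minus OVCAR-3 was -2.57 (95% interval -3.02 to -2.11, adjusted p = 2.19e-05 in limma's test), and no contrast among SKOV-3, DOV-13 and CAOV-3 passed (smallest adjusted p = 0.0772). The other KRT4 probe set (214399_s_at) lay between 4.20 and 4.50 on all arrays and did not differ detectably among the lines (adjusted p = 0.494 by the F-test). KRT13, the type I partner of KRT4 in those epithelia, was between 3.76 and 4.32 on all 8 arrays, OVCAR-3 included.

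**Figure D2:**
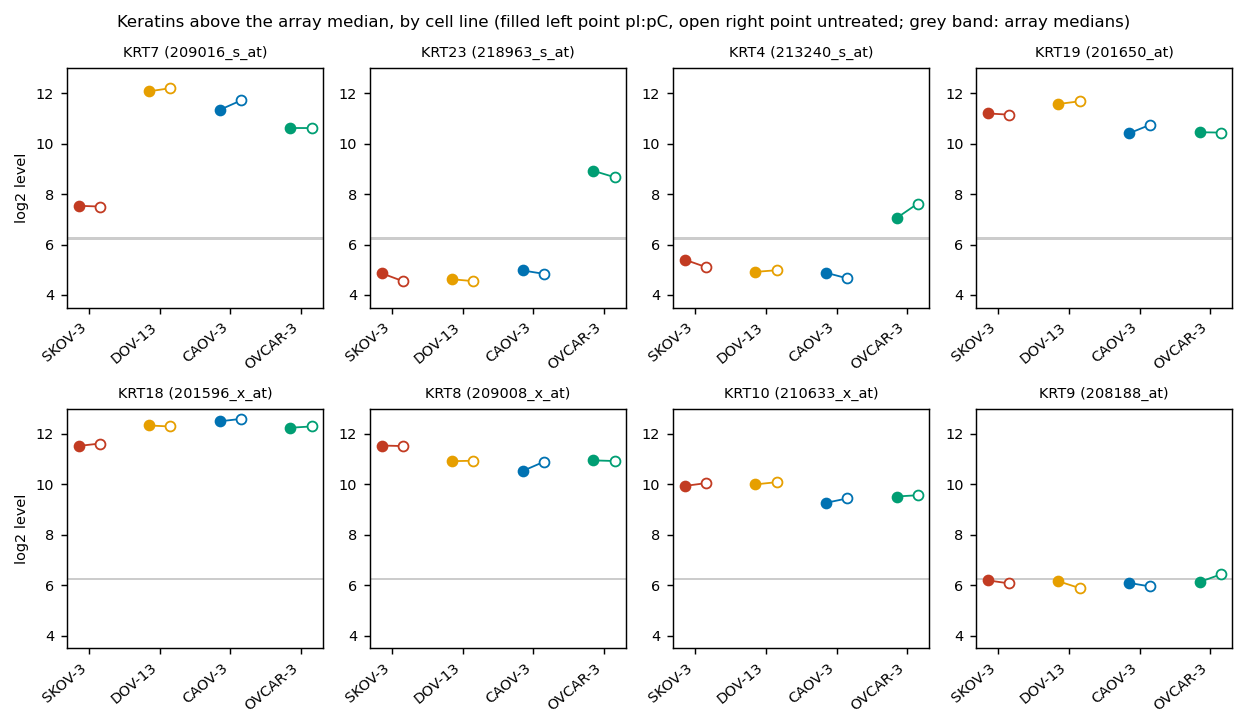
Log2 level (y axis) of 8 keratin probe sets, those at or above the array median on at least 1 array with the KRT10 probe set of the highest untreated mean (210633_x_at) shown, in the 4 cell lines (x axis), with pI:pC as the filled left and untreated as the open right point of each line. KRT7 is low in SKOV-3 (7.54 and 7.51), and KRT23 and KRT4 are above the grey band of array medians in OVCAR-3.

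KRT8 and KRT18, which form the first filament pair of simple epithelia, were expressed in every line, with opposite ends in SKOV-3. KRT8 (209008_x_at) had 11.54 with pI:pC and 11.52 untreated in SKOV-3, 10.92 and 10.93 in DOV-13, 10.53 and 10.89 in CAOV-3, and 10.95 and 10.92 in OVCAR-3. KRT18 (201596_x_at) had 11.52 and 11.62 in SKOV-3, 12.33 and 12.29 in DOV-13, 12.50 and 12.59 in CAOV-3, and 12.24 and 12.29 in OVCAR-3. SKOV-3 thus held the highest KRT8 and the lowest KRT18 values, without overlap with another line. For KRT8, SKOV-3 minus CAOV-3 was 0.81 (95% interval 0.54 to 1.09, adjusted p = 0.000666 in limma's test), and for KRT18 it was -0.98 (-1.18 to -0.78, adjusted p = 4.89e-05). SKOV-3 minus DOV-13 was 0.60 for KRT8 (adjusted p = 0.00492) and -0.74 for KRT18 (adjusted p = 0.000372), and SKOV-3 minus OVCAR-3 was 0.59 (adjusted p = 0.00381) and -0.70 (adjusted p = 0.000307). Among the other 3 lines no KRT8 contrast passed, with DOV-13 minus OVCAR-3 at -0.01 (-0.28 to 0.26), and for KRT18 only CAOV-3 minus OVCAR-3 did (0.28, adjusted p = 0.0306). Both genes have many processed pseudogenes, and probe sets ending in _x_at can also bind related transcripts, so some signal may come from copies.

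KRT19, the smallest keratin, and KRT10, the suprabasal skin keratin, were higher in SKOV-3 and DOV-13 than in CAOV-3 and OVCAR-3. KRT19 (201650_at) had 11.20 with pI:pC and 11.15 untreated in SKOV-3, 11.57 and 11.68 in DOV-13, 10.41 and 10.75 in CAOV-3, and 10.45 and 10.44 in OVCAR-3. DOV-13 stood at the top, SKOV-3 next to it (SKOV-3 minus DOV-13 -0.45, 95% interval -0.72 to -0.19, adjusted p = 0.0161 in limma's test), and SKOV-3 was above CAOV-3 by 0.60 (adjusted p = 0.00301). CAOV-3 and OVCAR-3 overlapped and their difference of 0.13 (-0.13 to 0.39, adjusted p = 0.386) did not pass.

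KRT10 was read by 3 probe sets that gave the same grouping of lines. The first (213287_s_at) had 9.97 with pI:pC and 10.05 untreated in SKOV-3, 10.05 and 10.00 in DOV-13, 9.09 and 9.50 in CAOV-3, and 9.41 and 9.31 in OVCAR-3. The second (210633_x_at) had 9.93 and 10.04 in SKOV-3, 10.00 and 10.08 in DOV-13, 9.26 and 9.44 in CAOV-3, and 9.51 and 9.57 in OVCAR-3. The third (207023_x_at) had 9.84 and 9.81 in SKOV-3, 9.89 and 9.84 in DOV-13, 8.95 and 9.22 in CAOV-3, and 9.31 and 9.26 in OVCAR-3. On each of them all SKOV-3 and DOV-13 arrays lay above all CAOV-3 and OVCAR-3 arrays. SKOV-3 minus CAOV-3 was 0.72, 0.64 and 0.74 on the 3 probe sets (213287_s_at, 210633_x_at, 207023_x_at), with adjusted p = 0.00242, 0.000433 and 0.000745 in limma's test. SKOV-3 minus DOV-13 lay between -0.05 and -0.01 on the 3, and CAOV-3 minus OVCAR-3 between -0.20 and -0.06, and neither contrast passed on any of them (smallest adjusted p = 0.736 and 0.106). KRT1, the type II partner of KRT10 in skin, was between 4.88 and 5.32 on all arrays. As with KRT8 and KRT18, the _x_at probe sets of KRT10 (210633_x_at and 207023_x_at) can also bind related transcripts, so some of their signal may come from these.

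The start regions of KRT10, expressed in every line, and KRT4, above the median in OVCAR-3, are shown to set a keratin found in all lines beside a line-restricted one. They are the 250 bases before the start site in RefSeq's annotation of GRCh38.p14, both on the minus strand, KRT10 at chr17:40822615-40822864 and KRT4 at chr12:52814117-52814366. Capitals mark matches, on either strand, to the TATA box letters TATAAA and to the core of the element bound by interferon-activated factors, which is GAAA and again GAAA with any 2 bases between them. These matches do not overlap, and the GC box core GGGCGG, which was searched as well, is in neither sequence.
KRT10: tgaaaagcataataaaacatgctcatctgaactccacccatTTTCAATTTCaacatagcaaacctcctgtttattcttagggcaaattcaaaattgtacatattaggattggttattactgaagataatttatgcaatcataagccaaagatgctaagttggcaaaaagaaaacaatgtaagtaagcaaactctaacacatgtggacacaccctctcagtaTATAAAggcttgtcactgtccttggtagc
KRT4: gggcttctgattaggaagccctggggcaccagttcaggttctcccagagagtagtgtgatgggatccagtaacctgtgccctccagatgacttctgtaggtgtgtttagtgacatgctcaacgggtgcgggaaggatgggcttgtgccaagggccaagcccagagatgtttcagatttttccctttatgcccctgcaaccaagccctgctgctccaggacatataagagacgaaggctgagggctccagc
In KRT10 TATAAA begins 29 bases before the start. The KRT4 window holds none of the 3 motifs, which says only that those letters are not in it. The KRT10 window was 34.8% G and C with 0 CpG, and that of KRT4 54.8% with 3 CpG, against medians of 58% and 11 CpG over 35114 windows of this length. A window was listed for 22 of the 32 keratin genes, not for KRT1, KRT7, KRT13, KRT14, KRT15, KRT16, KRT18, KRT19, KRT23 and KRT83. TATAAA was in 11 of the 22, against 10.7% of all windows, GGGCGG in 4, against 42.6%, and the interferon element core in 3, against 3.02%.

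The basal keratins, the stress-inducible KRT16 and the hair follicle keratin KRT75 stayed below the array median in all lines. KRT14 (209351_at), the basal partner of KRT5, had 4.55 with pI:pC and 4.68 untreated in SKOV-3, 4.17 and 4.28 in DOV-13, 4.18 and 4.07 in CAOV-3, and 4.18 and 4.17 in OVCAR-3. It differed among the lines (adjusted p = 0.00696 by limma's F-test), with SKOV-3 above the other lines by 0.39 to 0.49 at a level at which RMA compresses differences. KRT15 (204734_at), another basal keratin, was lowest in CAOV-3 at 4.11 and 4.25 (adjusted p = 0.00958), and the other lines lay between 4.35 and 4.72. KRT5 did not differ detectably (adjusted p = 0.386). KRT16, which skin raises on injury, ran between 4.65 and 5.08 (adjusted p = 0.198), and KRT75 between 5.41 and 5.82 (adjusted p = 0.0498), so that KRT75 passed and KRT16 did not.

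The single-symbol rule kept 11 hair keratin genes, KRT31 to KRT38 without KRT34 on the type I side and KRT83 to KRT85 on the type II side. Other hair keratins were not assessed. The 11 were below the median on every array, between 3.99 and 6.02. Of these only KRT33A (208483_x_at) passed the F-test (adjusted p = 0.031), with 5.61 on the treated DOV-13 array and 4.88 to 5.19 on the other 7 arrays. The stratified keratins KRT1, KRT2, KRT3, KRT12, KRT13, KRT24, KRT76 and the second KRT4 probe set were all below the median on all arrays, between 3.76 and 5.76, and none passed the F-test. Single contrasts passed for KRT3 (CAOV-3 minus OVCAR-3 -0.56, adjusted p = 0.0221 in limma's test) and KRT24 (-0.37, adjusted p = 0.0241), and SKOV-3 minus CAOV-3 passed for KRT2 (0.39, adjusted p = 0.0467) and the hair keratin KRT38 (0.41, adjusted p = 0.0282). The intestinal KRT20, which is used with KRT7 to tell ovarian from colorectal tumours, was between 3.90 and 4.25 on all arrays. It missed the threshold of limma's F-test (adjusted p = 0.083), while CAOV-3 minus OVCAR-3 alone passed (-0.32, adjusted p = 0.0259).

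Keratins were then compared between pI:pC and untreated cells, which asks whether double-stranded RNA moved the epithelial filament genes. No keratin passed over the 4 lines. The same test also called 0 of the 10 probe sets of the genes induced by double-stranded RNA. Their mean changes had a median of 1.45, although SKOV-3 and DOV-13 barely responded (medians of 0.14 and 0.18). The test thus cannot tell an unmoved keratin from one that moved in only some lines. With the line as a block in limma, 0 of 36 keratin probe sets passed at an adjusted p under 0.05, against 0% of all probe sets (0 of 22215), and the adjusted p of every keratin probe set was at least 0.996. At an unadjusted threshold of 0.05, 3 of 36 passed (KRT13, KRT23 and KRT33A), against 3.85% of all probe sets. These 3 were higher with pI:pC, against 2.35% of all probe sets that passed in that direction. All 4 lines moved 1 way for 7 of 36, against 11.5% of all. The median of the mean change was -0.01 over keratin probe sets and 0.01 over all.

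For the keratins expressed in every line the intervals of the mean change were bounded as follows. KRT8 averaged 10.98 ± 0.42 with pI:pC and 11.07 ± 0.30 untreated (SD, n = 4 arrays each), a mean change of -0.08 ± 0.19 with a 95% interval of -0.28 to 0.11 from limma. KRT18 had a mean change of -0.05 ± 0.06 (-0.19 to 0.09), KRT19 -0.10 ± 0.18 (-0.28 to 0.09), and KRT7 -0.12 ± 0.18 (-0.31 to 0.07). The 3 KRT10 probe sets had mean changes between -0.11 and -0.04, and the lowest bound among all of these intervals was -0.31, that of KRT7. KRT23 had 0.19 ± 0.11 (0.04 to 0.35, adjusted p = 0.996), higher with pI:pC in 4 of 4 lines, by 0.31 in SKOV-3, 0.07 in DOV-13, 0.13 in CAOV-3 and 0.25 in OVCAR-3. OVCAR-3 is the only 1 of these lines in which KRT23 was above the median. In SKOV-3 dim probe sets were mostly higher with pI:pC. These were 22 of the 29 keratin probe sets not at or above the median there, against 7038 of 11409 over all such probe sets. Of the 28 probe sets of genes not expected in these cells, 25 were higher in SKOV-3 (median difference 0.09), 16 in DOV-13, 16 in CAOV-3 and 10 in OVCAR-3.

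Within single lines no keratin probe set reached a difference of 1 with the higher value at or above the median. There were 0 of 36 in SKOV-3, against 0.018% of all probe sets, 0 in DOV-13, against 0.027%, 0 in CAOV-3, against 0.86%, and 0 in OVCAR-3, against 0.153%. At a difference of 0.5, 1 of 36 passed in OVCAR-3, KRT4, against 0.675% of all, and 0 in SKOV-3, against 0.738%, 0 in DOV-13, against 0.536%, and 0 in CAOV-3, against 3.73%. A single line, with 1 array of each condition, has no test. The largest differences in size were those of KRT4 (213240_s_at) in OVCAR-3, where it is expressed (7.05 with pI:pC, 7.62 untreated, -0.57), and of the dim KRT3, a corneal keratin, in DOV-13 (4.45 with pI:pC, 4.96 untreated, -0.51). In the other lines KRT3 had 4.55 with pI:pC and 4.32 untreated in SKOV-3, 4.16 and 4.41 in CAOV-3, and 4.71 and 4.97 in OVCAR-3. Neither had 1 sign in all lines, as KRT4 was higher with pI:pC by 0.30 in SKOV-3 and 0.22 in CAOV-3, and KRT3 by 0.23 in SKOV-3. KRT13 was higher with pI:pC in all 4 lines, by 0.31 in SKOV-3, 0.48 in DOV-13, 0.01 in CAOV-3 and 0.08 in OVCAR-3, at levels of at most 4.32.

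**Figure D3:**
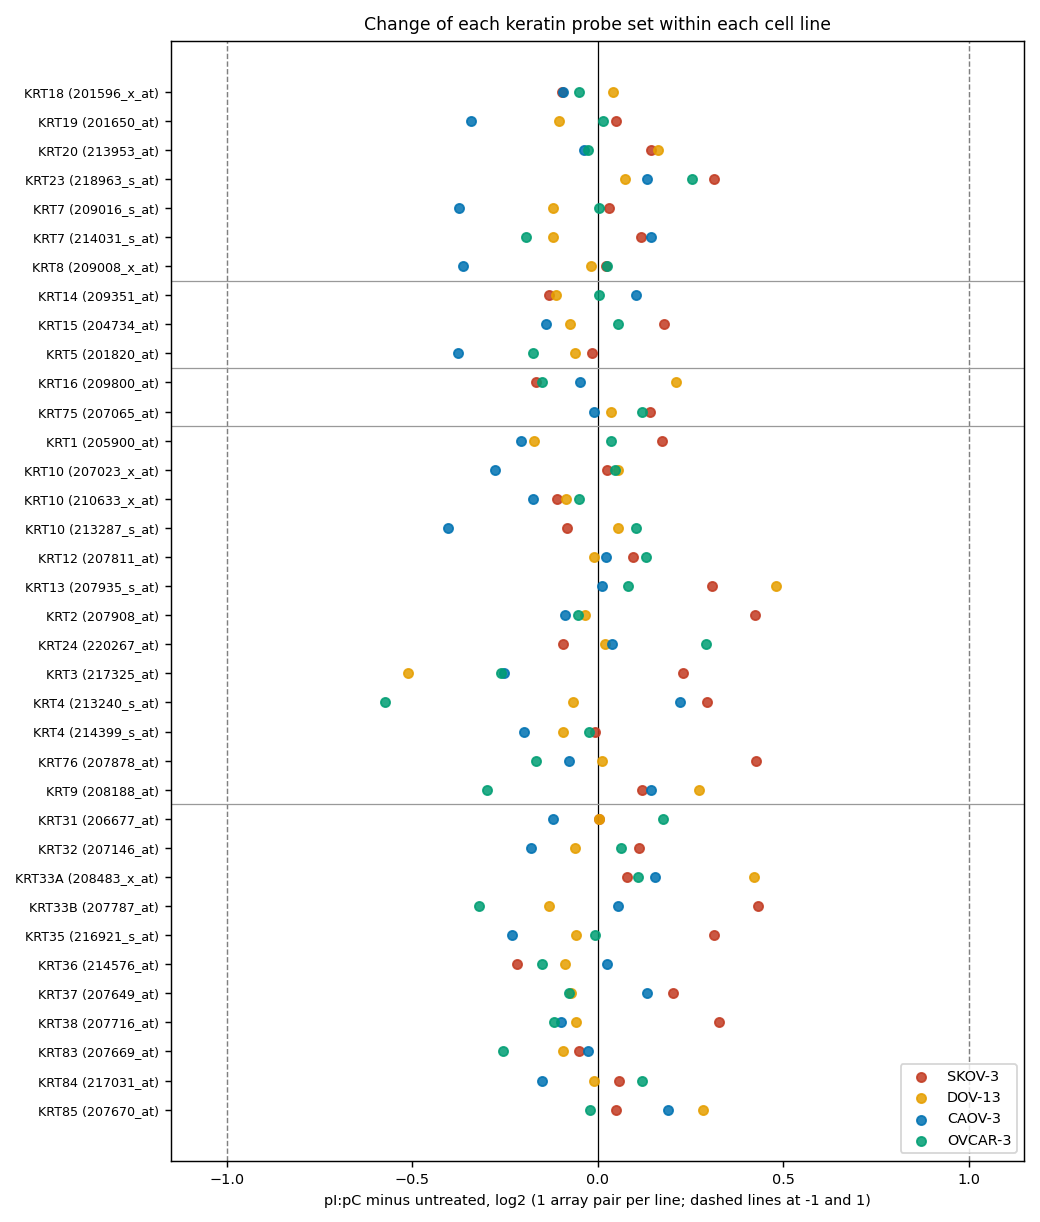
pI:pC minus untreated on the log2 scale (x axis) for all 36 keratin probe sets (rows, grouped by role), with 1 point for each cell line, which is 1 array pair. All points lie inside the dashed lines at -1 and 1, and the largest in size are KRT4 in OVCAR-3 at -0.57 and KRT3 in DOV-13 at -0.51.

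In CAOV-3 all 7 expressed keratin probe sets, of 5 genes, were lower with pI:pC. KRT7 had 11.34 with pI:pC and 11.72 untreated (-0.37), KRT8 10.53 and 10.89 (-0.36), KRT19 10.41 and 10.75 (-0.34), and KRT18 12.50 and 12.59 (-0.10). The KRT10 probe sets were lower by 0.40, 0.28 and 0.17. The median difference of the 7 was -0.34, and that of all probe sets at or above the median in CAOV-3 was 0.00, with a 5th percentile of -0.38 and a 25th percentile of -0.14. Lower values were found for 50.8% of those probe sets. Of the 29 keratin probe sets not at or above the median in CAOV-3, 16 were lower and 13 higher with pI:pC. Over all 11424 such probe sets, 6322 were lower and 5091 higher. The median difference was -0.03 over the 29 and -0.02 over all such probe sets. The lowest of the 29, KRT5, was at -0.38. Single probe sets of related genes fell by similar amounts in CAOV-3, while others rose. Vimentin (VIM) changed by -0.30, synemin (SYNM) by -0.39 and dystonin (DST, 212254_s_at) by -0.56. That was the lowest of the DST probe sets, of which 215810_x_at changed least, by -0.01. Internexin (INA) rose by 0.60 and desmocollin (DSC2, 204751_x_at) by 0.57. Of 21 probe sets of other intermediate filament genes 8 were higher (median -0.07), and of 27 of desmosome and hemidesmosome genes 9 (median -0.05). Over all probe sets in CAOV-3, 10397 of 22215 were higher (median -0.01).

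In the other 3 lines the expressed keratins had differences of both signs. Of the expressed keratin probe sets 3 of 7 were lower with pI:pC in SKOV-3, against 55.9% of all expressed probe sets, 4 of 7 in DOV-13, against 35.3%, and 3 of 9 in OVCAR-3, against 51.9%. The median difference was 0.02 in SKOV-3, -0.02 in DOV-13 and 0.01 in OVCAR-3. Whether the lines differ in this response cannot be tested with 1 array pair each. The ratio of 3' to 5' probe sets of the array's ACTB control, a sign of RNA length, was 0.94 with pI:pC and 0.80 untreated in CAOV-3 on the log2 scale, and that of GAPDH 0.11 and 0.12. The ACTB ratio was highest in OVCAR-3, at 1.26 with pI:pC and 1.32 untreated, and between 0.58 and 0.67 in SKOV-3 and DOV-13. The GAPDH ratio gave another order. It was highest in SKOV-3, at 0.30 with pI:pC and 0.20 untreated, and between 0.07 and 0.12 in the other lines. The part of RNA length in the keratin differences, within or between lines, was not tested. Without CAOV-3 the mean change of KRT8 was 0.0094, and those of the KRT10 probe sets 207023_x_at and 213287_s_at were 0.041 and 0.025. The mean change of KRT19 was then -0.015 and that of KRT7 -0.030.

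**Figure D4:**
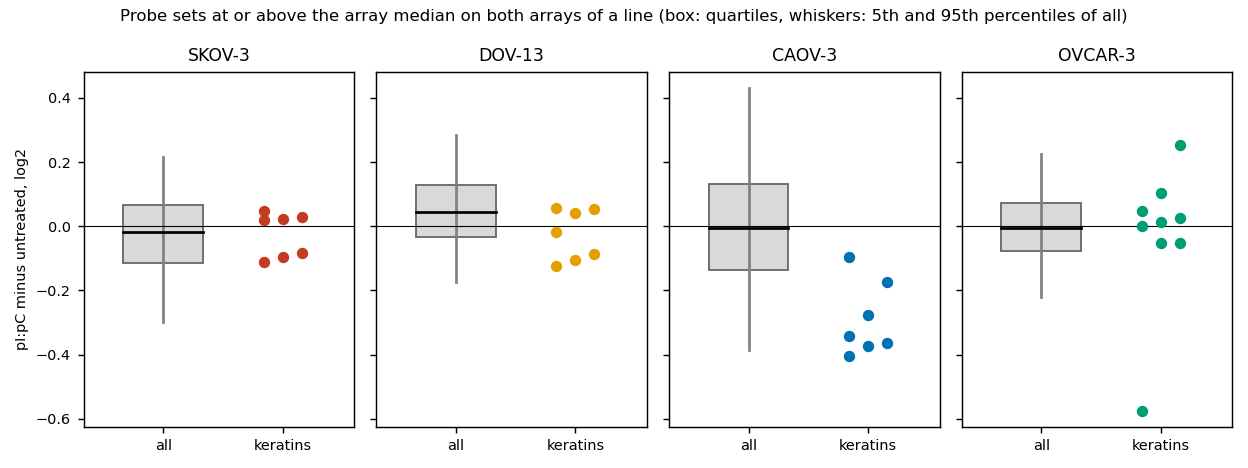
pI:pC minus untreated on the log2 scale (y axis) of probe sets at or above the median on both arrays of a line, 1 panel per cell line, as a box (quartiles, median line, whiskers from the 5th to the 95th percentile) for all probe sets and as points for the keratin probe sets. In CAOV-3 all 7 points lie below 0, between -0.40 and -0.10.

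Genes that work with keratins were set beside them as context. Of 27 probe sets of desmosome and hemidesmosome genes, which anchor keratin filaments to the membrane, 22 differed among the lines by limma's F-test, against 65.5% of all probe sets, and 0 passed the test of pI:pC, against 0% of all. The plakophilin gene PKP2 (207717_s_at) was low in SKOV-3, at 3.94 with pI:pC and 4.26 untreated, and between 7.93 and 8.69 in the other lines (adjusted p = 3.99e-07), as KRT7 was. The desmocollin gene DSC2 (204751_x_at) was at 8.84 and 8.89 in OVCAR-3 and at or below 5.24 elsewhere, and the periplakin gene PPL (203407_at) was between 9.17 and 9.38 in CAOV-3 and OVCAR-3 and between 5.56 and 6.41 in SKOV-3 and DOV-13.

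Of 21 probe sets of other intermediate filament genes 11 differed among the lines (against 65.5% of all) and 0 between pI:pC and untreated cells (against 0%). Vimentin (VIM, 201426_s_at), the filament of mesenchymal cells, had 13.58 with pI:pC and 13.60 untreated in SKOV-3, 13.49 and 13.49 in DOV-13, 7.23 and 7.53 in CAOV-3, and 5.80 and 5.30 in OVCAR-3. SKOV-3 and DOV-13, at the top for vimentin, were also the lines with higher KRT19 and KRT10, while KRT7 was at its lowest in SKOV-3 and at its highest in DOV-13. Synemin (SYNM, 212730_at) was between 7.96 and 8.71 in SKOV-3 and CAOV-3 and between 5.19 and 6.26 in DOV-13 and OVCAR-3. Internexin (INA, 204465_s_at) ran between 5.71 in SKOV-3 and 8.14 in OVCAR-3.

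Of 20 probe sets of transcription regulators of the epithelial state 17 differed among the lines (against 65.5% of all) and 0 with pI:pC (against 0%). ZEB1 (212764_at), a repressor of epithelial genes, was between 8.66 and 8.96 in SKOV-3 and DOV-13 and between 4.01 and 4.27 in CAOV-3 and OVCAR-3. The splicing regulator gene ESRP1 (219121_s_at) ran the other way, between 4.72 and 5.01 in SKOV-3 and DOV-13, at 9.05 and 9.12 in CAOV-3 and at up to 9.33 in OVCAR-3. SNAI2 (213139_at) was at 10.70 and 10.85 in SKOV-3, 7.57 and 7.64 in DOV-13, 6.32 and 7.42 in CAOV-3, and 4.13 and 4.18 in OVCAR-3. Of 12 probe sets of the cornified envelope, the shell of dead skin cells, 6 differed among the lines (against 65.5% of all) and 0 with pI:pC (against 0%). Filaggrin (FLG, 215704_at), which bundles keratin filaments in skin, was at 10.34 and 10.55 in OVCAR-3 and between 3.59 and 3.77 in the other lines. The other members with the widest spread were S100A9 (203535_at), highest in CAOV-3 at 6.52 and 5.35, and IVL (214599_at), between 4.11 and 4.83.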

How the data were processed

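Total RNA of 4 cell lines was measured on 8 Affymetrix arrays. The authors' deposited values are log2 expression levels, for which the submitters' processing notes name RMA. No version of it, and no statement that the 8 arrays were run through it jointly, was found in the labels or the file. RMA corrects background, normalizes between arrays and summarises probes, and it compresses differences of dim probe sets. Background signal is not in the file, so no detection call was made.

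Names come from GEO's annotation of the platform. Of the 22215 left without 62 array controls, 19064 have 1 gene symbol, 1043 several and 2108 none listed. Groups and cell lines came from the labels. limma 3.58.1 (R 4.3.3; lmFit and eBayes, two-sided, Benjamini-Hochberg over all 22215 probe sets, threshold 0.05) tested pI:pC minus untreated with the cell line as a block, and line differences with treatment as a term. Both fits have 3 residual and 4.59 prior degrees of freedom. The cell line pairs the arrays, and deviations from the group means correlated at 0.936 to 0.965 within the 4 pairs. Within a line there is no test.

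Probe sets of 1 gene were kept apart, and 3 genes have more than 1. The members, lists and tests were chosen with earlier results of these data known. Values are given on all arrays for members that reach the array median on at least 1 array, differ by 0.5 or more in a line or are among the 5 with the largest F. Other members are given by range or, where an F-test passed or a role called for it, singled out after their values were seen, as were the control ratios and the count of lower expressed keratins. Of the epithelial marker list and of the 4 lists of genes set beside the keratins, the 3 probe sets with the widest spread over lines are named. Fits were tested on simulated data. Alternatives were 1 probe set per gene, a level filter, quantile normalization, centring, eBayes with trend and robust, other thresholds, no block, no treatment term, adjustment over all 6 contrasts and leaving out each line.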

Additional observations from a re-analysis of the deposited data

Results flagged for a closer look

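In groups of 4 values, 1 per cell line, 6 of 33 keratin groups had an extreme value whose gap to its neighbour exceeded Dixon's 95% critical share of the range, which chance alone gives in about 1 of 20 where groups are not chosen by their values. The members tested were chosen in part for reaching the array median in a line, so that rate cannot be read against this count. In levels, OVCAR-3 was the highest alone for KRT23 with pI:pC (8.92) and untreated (8.67) and for KRT4 untreated (7.62), which is a description only, since both entered through their OVCAR-3 arrays. SKOV-3 stood alone as the highest untreated level of KRT8 (11.52). In pI:pC minus untreated differences, CAOV-3 was the lowest alone for KRT8 (-0.36) and for the KRT10 probe set 207023_x_at (-0.28). Both differences come from 1 array pair, and no difference between lines in the response was tested.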

How the results depend on the processing

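Over the 4 lines 0 keratin probe sets passed for pI:pC under every alternative run, among them without the cell line as a block (0, the fit with no replicate block), without each line in turn and at an adjusted p of 0.1. No probe set of the whole array passed in any of these fits either, so this count says nothing particular to keratins. In limma's fit as reported, 3 keratin probe sets passed an unadjusted threshold of 0.05. The 13 that differed among the lines became 10 to 12 without a line, and 7 when only probe sets at or above the median mean level were tested, a filter that removes dim members by construction. With that filter 7 differed for SKOV-3 minus CAOV-3 (11 as reported), 5 for DOV-13 minus OVCAR-3 (8) and 2 for CAOV-3 minus OVCAR-3 (8). With a difference of at least 1 as well, counts were 1 for SKOV-3 minus DOV-13, 1 for SKOV-3 minus CAOV-3, 3 for SKOV-3 minus OVCAR-3, 1 for DOV-13 minus CAOV-3, 4 for DOV-13 minus OVCAR-3 and 2 for CAOV-3 minus OVCAR-3. At a threshold of 0.1, 16 differed for SKOV-3 minus OVCAR-3 (10 as reported). The shares of all probe sets with the filter, without a line and at 0.1 are not given here, so these counts are not set against the array. At a limit of 0.5, 1 keratin passed within OVCAR-3, KRT4. The sign of a mean change turned without CAOV-3 for KRT8 (range over the lines left out -0.120 to 0.0094) and the KRT10 probe sets 207023_x_at (-0.069 to 0.041) and 213287_s_at (-0.144 to 0.025), without DOV-13 for KRT9 (-0.013 to 0.178), and without OVCAR-3 for KRT4 (-0.140 to 0.15). None of these mean changes had passed the test. The number expressed in each line and the 7 lower in CAOV-3 stayed within 1.5 times of the reported counts, the CAOV-3 count checked with 1 probe set per gene, quantile normalization and centring, alternatives chosen after seeing the data. Signal near background limits all statements on the dim keratins.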
